A study of Mus musculus with 4 samples.

Results

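A set of 8 genes of the hnRNP L, polypyrimidine tract binding (PTB) and KH-domain hnRNP families was followed in mouse C2C12 myoblasts in which *Hnrnpl* had been knocked down. They were taken by name, as the shRNA target and its nearest relatives. The rule used no measured value, but earlier results of these data were known when the genes were chosen. The members were *Hnrnpl*, *Hnrnpll*, *Ptbp1*, *Ptbp2*, *Ptbp3*, *Pcbp1*, *Pcbp2* and *Hnrnpk*, out of 56748 gene IDs listed, of which 16728 had at least 1 read. All 8 had reads and 7 passed the filter on low counts that left 8670 genes for testing. The question was how far the target fell and whether any of its relatives moved with it or against it.

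C2C12 is an established mouse myoblast line, here of the genotype WT. The scrambled group carried a scrambled control shRNA and the knockdown group a mixture of 3 shRNAs against mouse *Hnrnpl*. Cells of both groups were transfected with plasmids that also carry an eGFP reporter, selected with 3 µg/mL puromycin and kept in growth medium with fetal bovine serum. Each group had 2 libraries of direct RNA, read on nanopore flow cells without conversion to cDNA. The libraries of 1 group are passages of a single selected stable line, so their spread holds passage and technical variation but not that between independently derived lines. By the labels, 1 scrambled and 1 knockdown library form each of 2 batches.

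The hnRNPs bind pre-mRNA in the nucleus and steer splicing, polyadenylation, stability and translation. hnRNP L and its paralogue hnRNP LL bind CA-rich RNA through RRM domains, and the PTB proteins, which have the same kind of domain, bind CU-rich tracts. hnRNP K and the poly(C) binding proteins use KH domains and bind C-rich RNA. Several of these families adjust their own mRNA level, and that of their paralogues, by splicing to forms that undergo nonsense-mediated decay, and in neural development PTBP2 replaces PTBP1. The GENCODE annotation lists forms of this decay type for 7 of the 8 members, among them 3 of 21 transcripts for *Hnrnpl*, 9 of 21 for *Hnrnpll* and 29 of 145 for *Hnrnpk*, and none for the single-exon *Pcbp1*. The deposited counts are per gene and do not tell these forms apart.

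The 3 shRNA targets are shown because they set what the knockdown should reach. They lie in the coding sequence of *Hnrnpl* (ENSMUSG00000015165, forward strand of chromosome 7, 28507966 to 28521693 in GRCm39). Capitals in the second target mark the bases past the splice junction.
shRNA 1 target: attgacggagtagtggaagct
shRNA 2 target: ctactccataaccacgGATGT
shRNA 3 target: atggtctatggcttggatcaa

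Target 1 is in exon 2 of 13, chr7:28512764-28512784, and is found in 15 of the 21 annotated transcripts. Target 2 runs from exon 3, chr7:28513501-28513516, into exon 4, chr7:28513627-28513631, and is found in 17 of them. Target 3 is in exon 8, chr7:28518269-28518289, and is found in 13 of them. Over all annotated transcripts of the other 7 members, the best ungapped window differed from a target at 6 to 9 of its 21 bases. Windows with 6 mismatches were found in *Hnrnpll*, *Ptbp2*, *Ptbp3* and *Hnrnpk*. That of *Ptbp3*, whose counts did not pass the test below, was for target 1 and is not shown. The best windows of the paralogue *Hnrnpll* and of *Ptbp2* and *Hnrnpk*, the relatives whose counts passed that test, are shown with mismatches in capitals.
*Hnrnpll* against target 2, 6 mismatches: ctacAGcaAaGccacTgatCt
*Ptbp2* against target 1, 6 mismatches: TtGgaAggaAGagtggaagcA
*Hnrnpk* against target 1, 6 mismatches: attTGAggTgtagtgAaaTct

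The *Hnrnpll* window is in the 3′ UTR (chr17:80343747-80343767), the *Ptbp2* window in the 5′ UTR (chr3:119577274-119577294) and the *Hnrnpk* window in the 3′ UTR (chr13:58540086-58540106). In these windows the longest unbroken match was 9 bases in *Ptbp2*, 6 in *Hnrnpk* and 4 in *Hnrnpll*. Among the best windows of all relatives the longest was 10 bases, in *Ptbp1* against target 3, a window with 8 mismatches. A window with 6 or fewer mismatches is not rare: 8.1% of the 8662 tested gene names other than *Hnrnpl* with a transcript in the annotation have one for target 1, and 5.8% for target 2. Long transcripts and genes with many annotated transcripts offer more windows. Among all annotated genes apart from *Hnrnpl*, the only exact match was that of target 3 in the processed pseudogene *Gm45246*, which had no reads in any library. The only other gene within 2 mismatches of any target was *Uso1*, a Golgi vesicle tethering factor, for target 1. Its counts were 87 and 94 in scrambled 1 and 2 against 89 and 66 in knockdown 1 and 2, with a log2 fold change of -0.027 (adjusted p = 0.955).

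From the translated coding sequence of each canonical transcript, hnRNP L and hnRNP LL were identical at 57.2% of 552 aligned residues. PTBP1 shared 74.6% with PTBP2 and 80.1% with PTBP3, and PCBP1 shared 84.5% with PCBP2. hnRNP L was at 30.9 to 32.9% with the PTB proteins. hnRNP K was at 36.6% with PCBP1 and 35.8% with PCBP2. Values of this size also occurred between proteins with unlike domains, such as 33.1% for hnRNP LL with hnRNP K over 142 aligned residues and 31.2% for PTBP3 with PCBP1 over 173.

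The 4 libraries held 1229424 to 1676911 reads on genes, which was 56.5 to 57.8% of the reads accounted for in the files. A count of 0 allows up to 3 reads, or 1.79 to 2.44 CPM (counts scaled to library size), and such limits and the intervals of counts and shares below cover counting error only. Mitochondrially encoded genes took 5.73 and 5.43% of the scrambled reads against 7.30 and 6.70% of the knockdown reads (replicates 1 and 2), and the calls on members were the same without these genes. Among the 8 myoblast markers, *Myf5* had 113 to 190 reads, *Myod1* had 1 read in 1 library and *Pax7* had none. Their summed level was 15070 and 15880 CPM in scrambled and 13540 and 14590 CPM in knockdown, most of it *Vim*, and 2 of the 5 tested fell, *Cdh15* (log2 fold change -2.55) and *Des* (-0.56, adjusted p = 0.0308 and 0.0526 with the replicate number as a block). *Megf10* was higher in both knockdown libraries without passing the test (0.52, adjusted p = 0.0851). Of the 8 markers of differentiated muscle 6 had no reads, among them *Myog* and *Ckm*, and the sum was 5.09 to 11.5 CPM. Markers of macrophages, adipocytes and neurons summed to at most 3.25 CPM per list in any library, with *Ptprc*, *Adgre1*, *Plin1*, *Rbfox3*, *Elavl3* and *Snap25* at 0. In the files 15.97 to 16.54% of reads were set aside as ambiguous and 22.7 to 23.8% as of low quality. The widely expressed ferritin gene *Ftl1* had 0 or 1 reads and *Col1a1* none, so a 0 is a listed value here and need not mean that a gene is silent. The part of the marker changes in the results below was not tested. In bulk RNA, fewer cells with a transcript and less of it per cell cannot be told apart.

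*Hnrnpl* and *Ptbp2* fell in knockdown. *Hnrnpk* rose by adjusted p, but short of the fold threshold and not under most alternatives, while the counts of the paralogue *Hnrnpll* overlapped between groups. A gene was called where the adjusted p was under 0.05, the absolute log2 fold change over 0.5 and the mean normalized count over 10. By this rule 2 of the 7 tested members were called, both lower: *Ptbp2* and the shRNA target *Hnrnpl*, whose fall was the aim of the design. Among the tested relatives *Ptbp2* alone was called. Over all 8670 genes 5.55% were called, 3.22% as lower and 2.33% as higher. By adjusted p alone 3 members passed, the target included, 1 higher and 2 lower, against 5.95% of all genes, 2.51% higher and 3.44% lower. Normalized counts are counts scaled by the TMM factors of edgeR to the mean library size, and fold changes are knockdown against scrambled from its quasi-likelihood test.

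**Figure D1:**
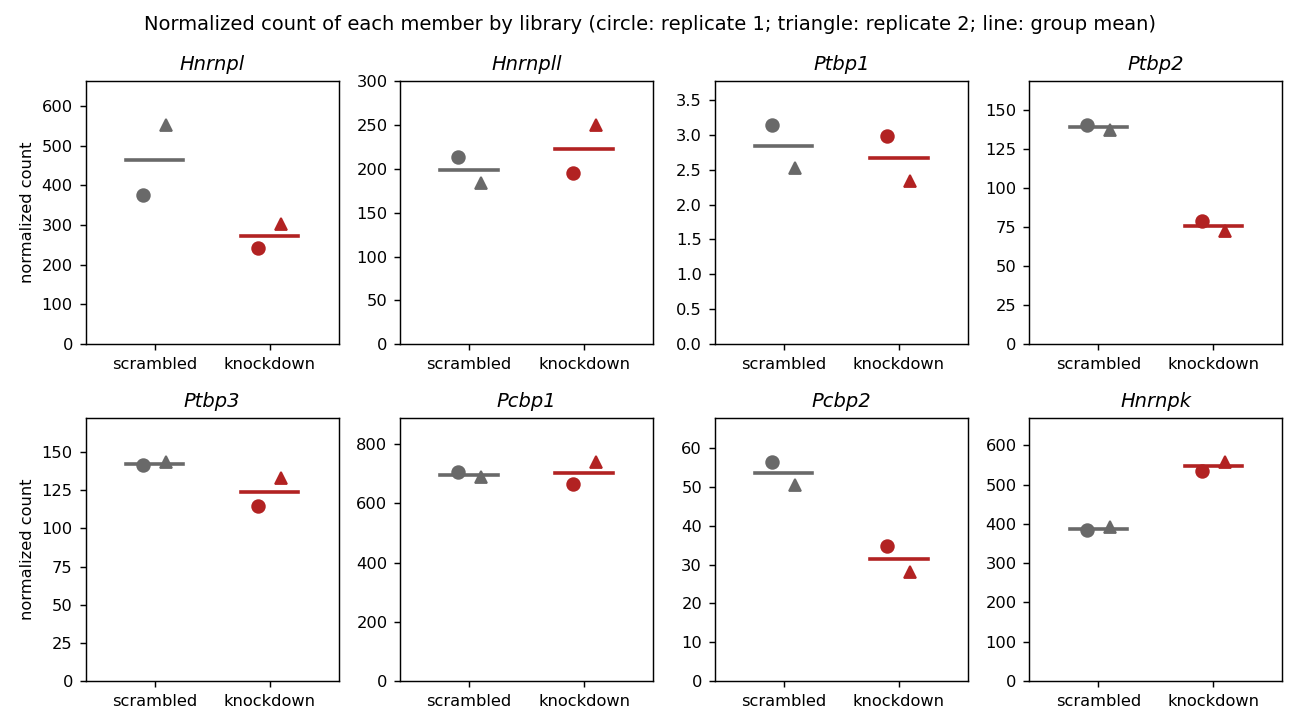
Normalized count (linear axis from 0, own scale per gene) of the 8 members in scrambled (grey) and knockdown (red), with a circle for replicate 1, a triangle for replicate 2 and a line for the mean of the 2 libraries. *Hnrnpl*, *Ptbp2*, *Ptbp3* and *Pcbp2* are lower in both knockdown libraries, *Hnrnpk* is higher in both, and *Ptbp1* has 2 or 3 reads in each library.

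*Hnrnpl*, the target, had normalized counts of 375 and 552 in scrambled 1 and 2 against 241 and 302 in knockdown 1 and 2. Both knockdown libraries were below both scrambled ones, but the scrambled libraries were farther from each other than the 73.3 counts between the groups. The means were 463 ± 125 and 271 ± 42.7 (SD, n = 2 each). The log2 fold change was -0.78 with a 95% confidence interval of -1.15 to -0.41 (adjusted p = 0.0112), so the knockdown level was 0.582 of the scrambled level, with an interval of 0.452 to 0.751. Within batch 1 the log2 ratio was -0.64 and within batch 2 it was -0.87. The fold change depended on scrambled 2, without which it was -0.48 (adjusted p = 0.194), and the call was also lost without knockdown 1 (-0.62, adjusted p = 0.150). Under DESeq2 with its parametric dispersion fit, run here as an alternative, *Hnrnpl* missed the threshold too (adjusted p = 0.0567 with the Wald test and 0.0670 with the likelihood-ratio test).

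*Hnrnpll* (ENSMUSG00000024095, reverse strand of chromosome 17, 80335472 to 80370014), the closest paralogue of the target and a regulator of *Ptprc* splicing in lymphocytes, did not pass the test. Its normalized counts were 214 and 183 in scrambled against 195 and 250 in knockdown. The groups overlap, and knockdown 2 had the highest value. The means were 198 ± 21.3 and 223 ± 38.8 (SD, n = 2 each), and the interval of the log2 fold change of 0.17 ran from -0.18 to 0.51 (adjusted p = 0.600). An increase of more than 1.42-fold or a decrease to less than 0.884 of the scrambled level thus lies outside the interval. The batches differed in sign, with a log2 ratio of -0.13 in batch 1 and 0.45 in batch 2. The 414 tested genes of chromosome 17 had a median log2 fold change of 0.19, and with the chromosome medians removed *Hnrnpll* was at -0.029.

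Within this pair the share of *Hnrnpll* was higher in knockdown, where *Hnrnpl* was lower. Reads of *Hnrnpll* made up 36.3% of the 562 reads of both genes in scrambled 1 (exact 95% binomial interval 32.3 to 40.4%) and 24.9% of 874 in scrambled 2 (22.1 to 28.0%). In knockdown the share was 44.8% of 438 (40.0 to 49.5%) and 45.3% of 472 (40.8 to 50.0%). Both knockdown shares were above both scrambled shares, and the scrambled libraries differed from each other by more than their intervals. No test of this share was made.

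The PTB genes had 1 member that fell, 1 that did not pass the test and 1 with too few reads. *Ptbp2* (ENSMUSG00000028134, reverse strand of chromosome 3, 119509386 to 119578115) encodes the PTB form best known from neurons, where it restrains adult splicing patterns during maturation. Its counts were 134 and 163 in scrambled against 79 and 62 in knockdown, or 140.3 and 137 and 78.7 and 72.5 after normalization. The libraries of each group lay close together and the groups were 58.4 normalized counts apart.

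The log2 fold change of *Ptbp2* was -0.87 with a 95% confidence interval of -1.23 to -0.51 (adjusted p = 0.00458), from 139 ± 2.24 to 75.6 ± 4.42 (SD, n = 2 each). It was the lowest of the 7 tested members, although its interval overlaps those of *Hnrnpl* and *Pcbp2* and the difference between genes was not tested. The batches gave -0.83 and -0.92. Chromosome 3 had a median of 0.10, and *Ptbp2* was at -0.97 with the chromosome medians removed. The call held with each library left out in turn, at log2 fold changes of -0.93 to -0.82 and adjusted p of 0.00536 to 0.0392. It was lost under DESeq2 with the parametric fit (-0.88, adjusted p = 0.157 with the Wald test and 0.179 with the likelihood-ratio test). The neuron markers *Rbfox3*, *Elavl3* and *Snap25* had no reads in any library, and *Syn1* had 1 to 4.

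*Ptbp3* (ENSMUSG00000028382, reverse strand of chromosome 4, 59471868 to 59549371), first described in haematopoietic cells, had 135 and 171 reads in scrambled against 115 and 114 in knockdown. Its normalized counts were 141 and 144 and then 115 and 133, so both knockdown libraries were lower, as 26% of all tested genes were. The log2 fold change of -0.21 had an interval of -0.55 to 0.14 and did not pass the test (adjusted p = 0.503). Within batches it was -0.30 and -0.11.

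*Ptbp1* (ENSMUSG00000006498, forward strand of chromosome 10, 79690261 to 79700605), the widely expressed member of the family and the repressor of neuronal exons outside neurons, had 3 reads in each scrambled library and 3 and 2 in knockdown. It was not tested, and these counts allow no statement on a change. Of the last 1000 bases of its canonical transcript, where direct RNA reads start, 43.5% lie antisense to exons of *Gm17134*, which had no reads, and 14 of its 30 transcripts end inside that gene. *Plppr3*, also on the other strand, spans the ends of 23 of the 30, shares 178 bases with the exons of the canonical transcript and had 0 or 1 reads per library. The annotation release and the strand setting of the counting are not given in the sources used here. The canonical transcript also aligns over 88.4% of its length, at 95.2% identity, to chromosome 13 at the pseudogene *Gm4900*, which had 1 read over the 4 libraries together, but its best alignment was to its own gene with the highest mapping quality, 60. The part of these features in the low count was not tested.

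Reads of *Ptbp2* were 49.3% of all PTB reads in scrambled 1 (43.2 to 55.4%) and 48.4% in scrambled 2 (42.9 to 53.9%), and 40.1% (33.2 to 47.3%) and 34.8% (27.9 to 42.3%) in knockdown. Reads of *Ptbp3* made up nearly all of the rest. The knockdown shares were below the scrambled shares in both batches, and the intervals of the libraries of batch 1 overlap. This share rests on the deposited *Ptbp1* count.

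Among the KH-domain members *Hnrnpk* rose by adjusted p without being called, the groups of *Pcbp1* overlapped, and *Pcbp2* was lower in both knockdown libraries without passing the test. *Hnrnpk* (ENSMUSG00000021546, reverse strand of chromosome 13, 58536691 to 58551339) encodes a C-rich binding protein of both nucleus and cytoplasm. It had normalized counts of 383 and 392 in scrambled against 534 and 559 in knockdown. The groups were well apart in relation to the distance between libraries. The means were 388 ± 6.24 and 546 ± 17.4 (SD, n = 2 each). The log2 fold change of 0.49, with an interval of 0.21 to 0.78 (adjusted p = 0.0364), fell just short of the fold threshold, which it passed with upper quartile factors (0.52, adjusted p = 0.0266), and the batches gave 0.48 and 0.51.

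Of 16 alternatives 6 kept the adjusted p of *Hnrnpk* under 0.05, against 12 for *Hnrnpl* and 14 for *Ptbp2*. With the batch as a replicate block the log2 fold change was 0.49 (adjusted p = 0.0714), and with any 1 library left out the adjusted p was 0.101 to 0.170 at fold changes of 0.46 to 0.53. *Hnrnpk* lies on chromosome 13, whose 331 tested genes had a median of 0.23. With the chromosome medians removed its log2 fold change was 0.27 (adjusted p = 0.372).

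*Pcbp1* (ENSMUSG00000051695, reverse strand of chromosome 6, 86501468 to 86504330), an intronless gene that encodes an mRNA-stabilizing and iron chaperone protein, had normalized counts of 705 and 689 in scrambled against 667 and 741 in knockdown. The groups overlap, and the log2 fold change of 0.014 had an interval of -0.27 to 0.30 (adjusted p = 0.969). On chromosome 6, with a median of 0.28, it was at -0.26 once the chromosome medians were removed (adjusted p = 0.387). Of its canonical transcript 76.9% is antisense to exons of *1600020E01Rik*, on which 6 and 10 reads were counted in scrambled against 12 and 22 in knockdown. *Pcbp1* itself had 634 to 819 reads per library.

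*Pcbp2* (ENSMUSG00000056851, forward strand of chromosome 15, 102378928 to 102408805), its multi-exon relative, which binds the same kind of C-rich element, had 54 and 60 reads in scrambled against 35 and 24 in knockdown. After normalization this was 56.5 and 50.5 and then 34.9 and 28.0, with both knockdown libraries lower. The log2 fold change of -0.75 was nearly that of *Hnrnpl*, but with fewer reads its interval was wide, from -1.29 to -0.21. Its adjusted p was 0.0926, and none of the 16 alternatives brought it under 0.05. Within batches the log2 ratio was -0.70 and -0.85. Of its 70 annotated transcripts 42 end inside *Map3k12* on the other strand, which had 0 to 3 reads.

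Reads of *Pcbp1* were 92.6% (90.4 to 94.4%) and 93.2% (91.3 to 94.8%) of those of both *Pcbp* genes in scrambled, and 95.03% (93.2 to 96.5%) and 96.4% (94.6 to 97.7%) in knockdown. The knockdown shares were the higher ones in both batches, while the normalized counts of *Pcbp1* itself overlapped between groups. The interval of knockdown 1 overlaps those of both scrambled libraries, and that of knockdown 2 overlaps that of scrambled 2.

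**Figure D2:**
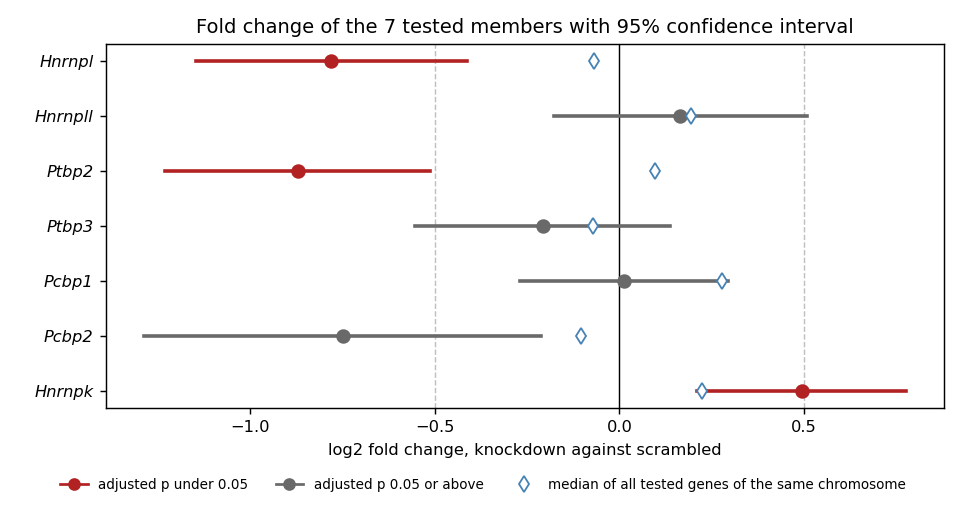
Log2 fold change (knockdown against scrambled) of the 7 tested members with its 95% confidence interval, red where the adjusted p was under 0.05, and the median of all tested genes of the same chromosome as an open diamond. Dashed lines mark the fold threshold of 0.5, which *Hnrnpl* and *Ptbp2* pass on the lower side and *Hnrnpk*, at 0.49, does not reach.

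Of the 6 tested relatives of *Hnrnpl*, then, 1 rose by adjusted p, against 2.51% of all genes, 1 fell, against 3.44%, and 4 did not pass the test. The one that rose, *Hnrnpk*, was above an adjusted p of 0.05 with the replicate block (0.0714) and in 10 of the 16 alternatives, the block included. Groups of normalized counts did not overlap for *Hnrnpl*, *Ptbp2*, *Ptbp3* and *Pcbp2* on the lower side and for *Hnrnpk* on the higher side, and over all genes 52.4% had groups that did not overlap. The chromosomes that hold the members differed in their median log2 fold change, from -0.10 to 0.28. This median was close to the gene's own change for *Hnrnpll*, larger than it for *Pcbp1*, and small beside it for *Hnrnpl* and *Ptbp2*.

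**Figure D3:**
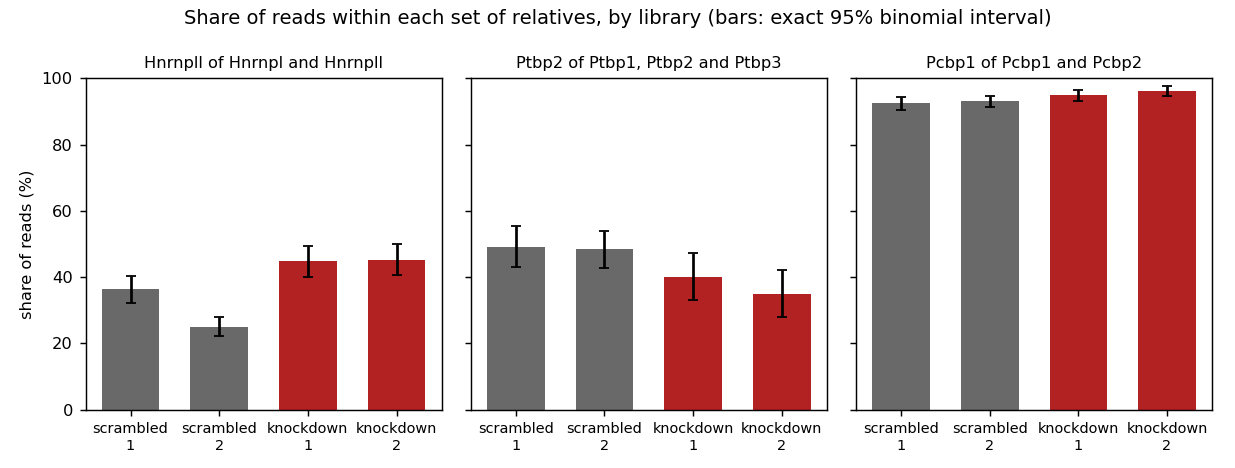
Share of reads (percent, axis from 0 to 100) of 1 gene within its set of close relatives in each library, with exact 95% binomial intervals. In both batches the knockdown share is higher for *Hnrnpll* and *Pcbp1*, whose own counts did not pass the test, and lower for *Ptbp2*.

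The 8 members together were at 1389 and 1524 CPM in scrambled and 1364 and 1453 CPM in knockdown, and the groups overlap. Without *Hnrnpl* the sum was 1131 and 1133 CPM in scrambled and 1188 and 1243 CPM in knockdown, higher in both knockdown libraries. No test of these sums was made. *Hnrnpl* made up 18.6 and 25.7% of all member reads in scrambled and 12.9 and 14.5% in knockdown. *Hnrnpk* made up 19.0 and 18.2% in scrambled and 28.6 and 26.8% in knockdown, so its share was above that of *Hnrnpl* in both knockdown libraries and, by 19.0 against 18.6%, in scrambled 1.

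Levels were also set against each other per length, as CPM per kilobase of the canonical transcript. In scrambled the order was *Pcbp1* (266 ± 1.34), *Hnrnpl* (151 ± 43.8), *Hnrnpk* (53.8 ± 1.99), *Hnrnpll* (28.8 ± 2.50), *Ptbp2* (25.7 ± 0.120), *Pcbp2* (17.7 ± 1.05), *Ptbp3* (14.5 ± 0.488) and *Ptbp1* (0.635 ± 0.0849), each as mean ± SD of 2 libraries, and no neighbours in it overlapped. In knockdown *Hnrnpl* was again second per length, at 89.7 ± 11.1, close above *Hnrnpk* at 77.4 ± 0.156. *Ptbp2* (14.3 ± 1.32) and *Ptbp3* (12.9 ± 0.941) overlapped there, and *Pcbp2* (10.7 ± 1.99) was now below *Ptbp3* too. A direct RNA read stands for 1 molecule, often 3′ only, so the order by length is an approximation, and it differs from that of undivided CPM. Undivided, *Ptbp3* (99.6 ± 3.3 CPM) was close above *Ptbp2* (96.9 ± 0.444 CPM) in scrambled. In knockdown they were at 88.2 ± 6.41 and 53.95 ± 4.98 CPM. *Pcbp2* was below both of them in scrambled (37.35 ± 2.22 CPM) and in knockdown (22.5 ± 4.2 CPM). Without division by length, *Hnrnpk* was at 389 ± 0.792 CPM and *Hnrnpl* at 193 ± 23.9 CPM in knockdown, against 271 ± 9.98 and 325 ± 94.2 CPM in scrambled, where their ranges overlapped.

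The 5 genes whose pattern over the 4 libraries was nearest to that of *Hnrnpl*, among 2575 genes with a mean normalized count of at least 100, were *Grk2*, *Dpp3*, *Anp32a*, *Ehbp1l1* and *Erdr1y*. Likeness was the root mean square difference of centred log2 values, which ran from 0.0652 to 0.111 for these genes. All 5 shared the high value in scrambled 2: *Grk2*, a kinase of G protein-coupled receptors, was at 116 and 186 in scrambled against 84.7 and 99.3 in knockdown. *Grk2*, *Dpp3* and *Ehbp1l1* lie on chromosome 19, whose median log2 fold change was -0.23. *Anp32a*, at -0.64, lies on chromosome 9, whose median was -0.37. *Erdr1y* has a near-identical copy, so its count is uncertain. The genes were chosen for this pattern, and their levels are a description.

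None of the 21 other hnRNP genes passed an adjusted p of 0.05 in the quasi-likelihood test, beside 5.95% of all genes. By unadjusted p under 0.05 there were 4 higher and 1 lower, beside 10.3 and 11.5% of all genes, and the DESeq2 fits gave no gene at an adjusted p under 0.05 either. The median log2 fold change of the 21 was 0.055, against -0.00059 over all genes tested. The most abundant were *Hnrnpa2b1* (1468 and 1449 normalized counts in scrambled, 1958 and 1835 in knockdown, log2 fold change 0.38, adjusted p = 0.104), *Hnrnpa1* (0.24, adjusted p = 0.311) and *Hnrnpu* (0.055, adjusted p = 0.857). *Hnrnpa2b1* and *Hnrnpa1*, core hnRNP proteins with splicing functions, were higher in both knockdown libraries, and the groups of *Hnrnpu*, a nuclear scaffold protein, overlapped.

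Of 28 other KH-domain genes 20 were tested and 1 passed an adjusted p of 0.05, near the 5.95% of all genes. *Khdrbs3*, which encodes the STAR family splicing regulator SLM2, had 32 and 33 reads in scrambled against 8 and 6 in knockdown. Its log2 fold change was -2.00 with an interval of -2.82 to -1.17 (adjusted p = 0.00458), and it was above 0.05 under DESeq2 with the parametric fit (0.162 and 0.179) and without knockdown 1 (0.05003). With at least 10 counts required in every library *Khdrbs3* was not tested, and the gene that passed in its place was *Mex3c* (adjusted p = 0.0463, against 0.0559 with the filter used here). The median of the 20 was 0.095. The most abundant were *Qki* (0.072, adjusted p = 0.833), *Khdrbs1* (-0.035, adjusted p = 0.921) and the vigilin gene *Hdlbp* (0.46, adjusted p = 0.0634), which was at 273 and 254 in scrambled against 374 and 349 in knockdown.

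Among 8 tested genes of 10 relatives and partners in splicing, 1 passed an adjusted p of 0.05, beside 5.95% of all genes. *Mbnl1*, a muscle splicing regulator, had normalized counts of 598 and 546 in scrambled against 808 and 774 in knockdown. Its log2 fold change was 0.47 (adjusted p = 0.0450), within batches 0.43 and 0.50, and the adjusted p was 0.0884 with the replicate block and above 0.05 with any library left out. *Nono* (-0.061, adjusted p = 0.842) and *Sfpq* (0.029, adjusted p = 0.931), which encode paraspeckle proteins, had overlapping groups. The median of the 8 was -0.022.

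A list of 13 mRNAs known as targets of hnRNP L, PTB or the poly(C) binding proteins had 10 tested genes. By adjusted p 1 rose and 2 fell, beside 2.51 and 3.44% of all genes. The median log2 fold change of the 10 was -0.35. The list was drawn up with earlier results of these data known, so these counts are a description. *Vegfa*, whose mRNA hnRNP L stabilizes in hypoxia, was at 159 and 148 in scrambled against 280.0 and 233 in knockdown (log2 fold change 0.74, adjusted p = 0.00763). Its adjusted p was above 0.05 under DESeq2 with the parametric fit (0.115 and 0.133), with the chromosome medians removed (0.0630), without scrambled 2 (0.0511) and without knockdown 1 (0.108). *Tpm1*, a classic model of PTB-regulated exons, was at 215 and 215 in scrambled against 48.8 and 84.1 in knockdown (-1.71, adjusted p = 4.1e-05). *Hba-a1*, whose mRNA the poly(C) binding proteins stabilize, was at 675 and 434 and then at 225 and 209 (-1.35, adjusted p = 0.000162). It has a near-identical copy, *Hba-a2*, with 0 to 2 reads, so how reads fell between both genes is uncertain.

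**Figure D4:**
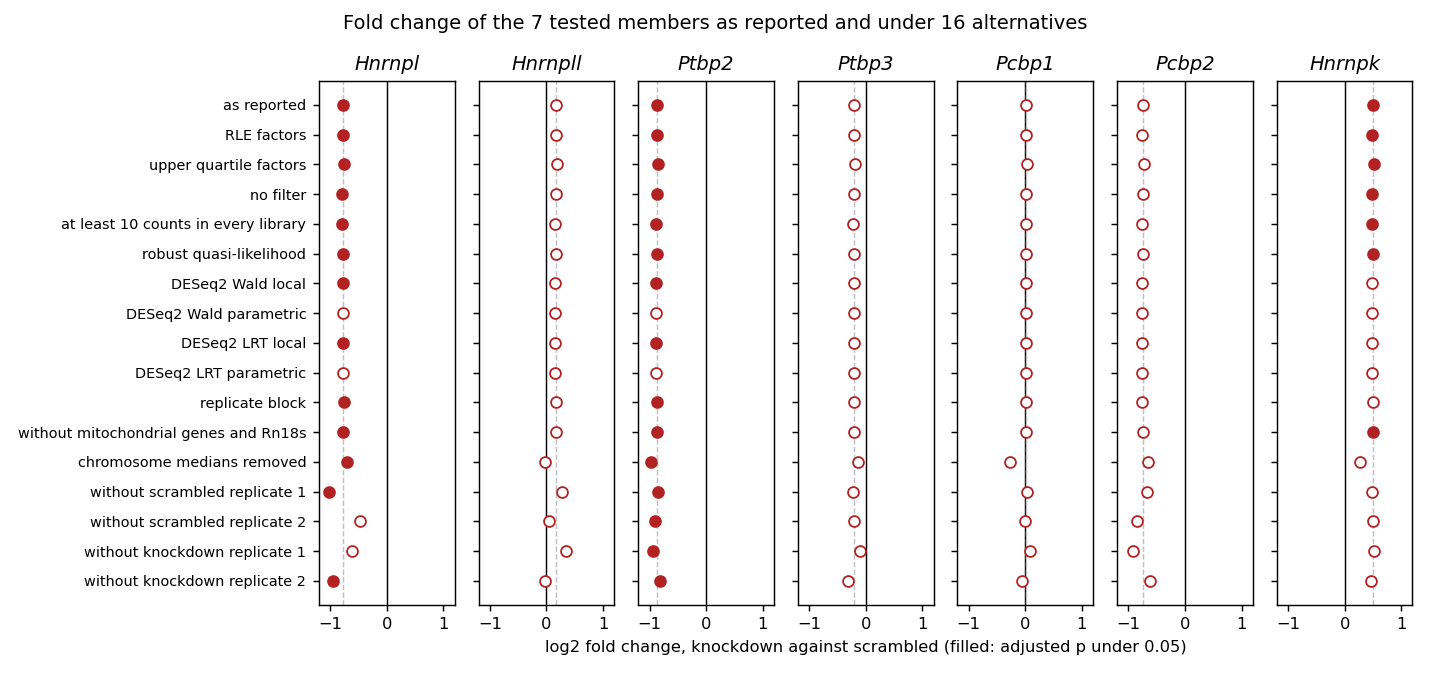
Log2 fold change of the 7 tested members as reported (top) and under each of 16 alternatives, filled where the adjusted p was under 0.05. The points of *Ptbp2* stay between -0.97 and -0.82, those of *Hnrnpl* range from -1.03 to -0.48 with the libraries used, and those of *Hnrnpk* stay above 0 but are mostly open.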

How the data were processed

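Direct RNA of 2 scrambled and 2 *Hnrnpl* knockdown C2C12 cultures was sequenced from 1 µg of total RNA each. The deposited values are raw counts per gene: per the submitters' processing notes, the authors mapped reads to GRCm39 with minimap2 2.17 and counted them with HTSeq 0.9.1. The annotation release and strand setting are not given in the sources used here.

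Counts were used as deposited, and rows that name no gene were left out, which kept 56.5 to 57.8% of the reads. Groups were tested with the quasi-likelihood test of edgeR 4.0.16 under R 4.3.3, after TMM scaling and filterByExpr, with Benjamini-Hochberg adjustment over 8670 genes. Alternatives were other factors, filters and tests (DESeq2 1.42.0), a replicate block, removal of chromosome medians and each library left out. Replicate numbers equal the labels' batches, and deviations of libraries numbered 1 had a correlation of -0.0186 between groups over 7008 genes. Symbols, positions and transcripts came from GENCODE vM39 (56017 IDs matched). Canonical transcripts were mapped with minimap2 2.31, and proteins aligned with Biopython 1.88 (BLOSUM62).

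Named genes are the 8 members, list genes with an adjusted p under 0.05 (for lists with fewer than 3, also the 3 most abundant tested), the 5 most like *Hnrnpl*, and *Mbnl1*. Others were named after their values were seen. Members and lists were chosen with earlier results of these data known. The quasi-likelihood test alone was checked on simulated data, drawn with the means and dispersions of these libraries.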

Additional observations from a re-analysis of the deposited data

How the results depend on the processing

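Over 16 alternatives the direction held in all for *Hnrnpl*, *Ptbp2*, *Ptbp3*, *Pcbp2* and *Hnrnpk*. It reversed for *Hnrnpll* with chromosome medians removed (-0.029) and without knockdown 2 (-0.021, the lowest of -0.021 to 0.34 with single libraries left out), and for *Pcbp1* with chromosome medians removed (-0.26), without scrambled 2 (-0.010) and without knockdown 2 (-0.065, the lowest of -0.065 to 0.089). *Hnrnpl* lost its call under DESeq2 with the parametric fit (-0.78 by either test), and without single libraries it ran from -1.03 to -0.48. Both counts of members, called and by adjusted p alone, were 0 under DESeq2 with the parametric fit, 1 (*Ptbp2*) without scrambled 2 and without knockdown 1, and between 1 and 2 over the libraries left out. With upper quartile factors 3 were called, *Hnrnpk* among them, and 3 were, with *Pcbp2*, at an adjusted p under 0.1 with the other thresholds kept. With 1 library left in a group, that library is assumed to vary like those of the other group.

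All genes called numbered 481, and 228, 115, 222 and 112 with DESeq2 (Wald local, Wald parametric, likelihood-ratio local and parametric), 285 with chromosome medians removed, 484 with the replicate block, and 194 (without knockdown 1) to 433 with single libraries left out. Other hnRNPs at adjusted p under 0.05 numbered 1 with no filter. Other KH-domain genes numbered 2 with no filter, 3 with the robust test, 0 with DESeq2 parametric fits and 0 to 2 over the libraries left out. Relatives and partners numbered 0 with RLE factors, 3 of the DESeq2 fits (not Wald local), the replicate block, chromosome medians removed and any library left out. Known target mRNAs numbered 2 with DESeq2 parametric fits, without scrambled 2 and without knockdown 1, each time without *Vegfa*, and 4 with no filter (*Fth1* gained) and without scrambled 1 (*Src* gained). With chromosome medians removed they numbered 3, with *Vegfa* lost and *Fth1* gained. Among the 77 tested members, list and marker genes and genes most like *Hnrnpl*, the replicate block moved 5 across an adjusted p of 0.05: *Hnrnpk*, *Mbnl1* and *Des* were lost, and *Anp32a* (0.0447) and *Erdr1y* (0.0394) were gained. The causes of these differences were not tested. *Ptbp1* and *Pcbp2* had the fewest reads of the members, at most 3 and 60 per library.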
